A study of Mus musculus with 2 samples.

Results

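Transcripts of cholesterol synthesis, of its control by SREBP-2 and of intracellular cholesterol handling were compared between livers of Lpcat3fl/fl mice (Flox/Flox) and of Lpcat3fl/fl Albumin-Cre mice (L-Lpcat3 KO). The members were 29 genes listed by their place in these pathways, with earlier results of these data known, and all probe sets annotated to exactly 1 of them by gene ID were taken. This gave 59 probe sets of 26 genes, out of 34945 probe sets of 18194 genes. The other 3 genes, Acat2, Soat1 and Soat2, had no such probe set in the annotation used and were not analysed here. Both groups carried homozygous floxed alleles of Lpcat3, which encodes an acyltransferase that loads polyunsaturated chains into phospholipids; the albumin promoter drives Cre in hepatocytes, so other liver cells keep the gene. All mice were males of 12 weeks, kept on chow and killed after a 6 hr fast. RNA of 5 livers was pooled per genotype and hybridized to 1 Affymetrix whole-genome mouse expression array per pool. Ratios are therefore single values without an error among mice, and no test was run.

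Cholesterol is built from acetyl-CoA through mevalonate, isoprenoid diphosphates and squalene to the first sterol, lanosterol, which is then trimmed and reduced to cholesterol. When sterols in the ER membrane are low, the escort protein Scap carries the precursor of SREBP-2 (encoded by Srebf2) to the Golgi, where proteases free the transcription factor that raises transcription of most of these enzymes. Insig proteins hold Scap in the ER when sterols are plentiful. The liver is a main site of this pathway and exports its product in lipoproteins and bile.

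Signals are MAS5 intensities on a linear scale and are given as Flox/Flox against L-Lpcat3 KO throughout. Lpcat3 itself was 3310 against 1305, by 1 probe set that need not lie in the deleted part, so it is a weak check of the labels. The deposited signals had 1 common level per array. Signals below 76.4, the median of all signals, were raised to this floor, and a gene below it in both pools was not measured. Hepatocyte markers were high in both pools, with a summed signal of 323085 against 322273 over 9 genes, the brightest being the secreted proteins Apoa1 and Serpina1b (log2 ratios, L-Lpcat3 KO minus Flox/Flox, of -0.05 and -0.02). Kupffer cell and macrophage markers lay below 0 in 10 of 10 genes, with log2 ratios from -0.54 to -0.06 and a summed signal of 11498 against 10000.5; the brightest were Csf1r (-0.08) and Cd5l (-0.21). Endothelial markers summed to 7006 against 8121, with 5 of 7 genes above 0, log2 ratios from -0.38 to 0.42, and Clec4g and Fcgr2b the brightest (0.23 and 0.22). The 2 below 0, named after their values were seen, were Cdh5 (-0.38) and Pecam1 (-0.24). Stellate cell markers summed to 7566 against 7848, with Dcn and Reln the brightest (0.05 and 0.03). The 3 measured cholangiocyte markers were dim and went opposite ways, with Sox9 at 162 against 77.6 and Epcam at 58.4, below the floor, against 128. Of the lymphocyte markers 1 was measured, Cd8a (155 against 123), and the 4 measured neutrophil markers were each below the floor in 1 pool (353 against 154 summed), with Elane and S100a8 the brightest. In whole liver RNA, fewer cells of a type and less RNA per cell cannot be told apart. The part of these markers in the ratios below was not tested.

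Most of the genes had slightly higher signals in L-Lpcat3 KO, and few had much higher ones. Of the 26 genes, each represented by the probe set with its highest signal, 21 had a log2 ratio (L-Lpcat3 KO minus Flox/Flox) above 0, against 50.7% of 12059 measured genes. The median was 0.15, against 0.00 for all measured genes. At a size of 0.32 on the log2 scale (25% higher or 20% lower), 6 of the 26 were higher (all measured genes, 11.9%), namely Lss, Pmvk, Insig2, Hsd17b7, Mvk and Fdft1, and 1 was lower, Ggps1 (all measured genes, 10.2%). At 1.5-fold, 1 was higher, Lss (all measured genes, 4.01%), and 0 were lower (3.14%). At 2-fold, 0 were higher (0.556%) and 0 lower (0.514%). Bright genes passed these sizes less often, so the members were also set beside 4267 genes with a mean signal of at least 1000, a limit chosen after seeing the data. Of 22 members that bright, 19 had ratios above 0 (48.5% of all bright genes), 5 were at least 25% higher (3.12%) and 0 at least 20% lower (3.3%), while 1 was at least 1.5-fold higher (0.68%) and 0 lower (0.586%). These counts describe 2 pools and were not tested. By the mean of a gene's probe sets, Lss and Mvk lost the size of 0.32 while Hmgcs1 and Mvd passed it, and by second brightest probe sets Mvk was below 0 and Insig2, not Lss, was past 1.5-fold.

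**Figure D1:**
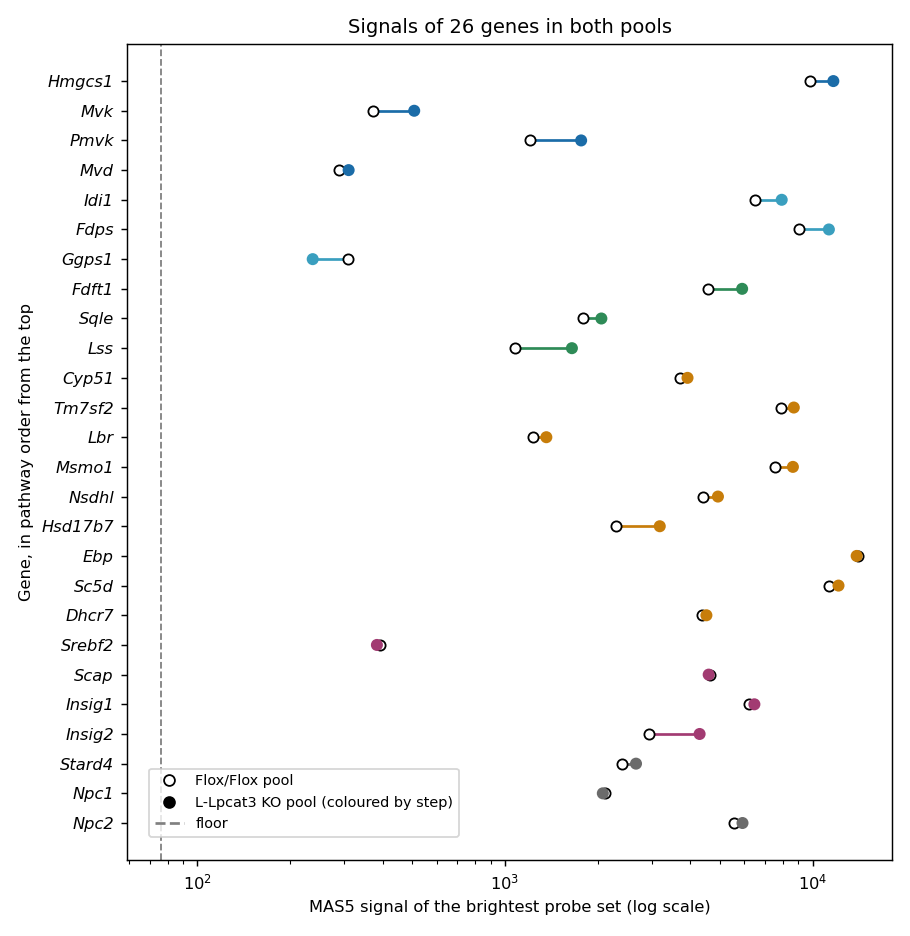
MAS5 signal (x axis, log scale) of the brightest probe set of each of 26 genes (y axis, in pathway order) in the Flox/Flox pool (open circles) and the L-Lpcat3 KO pool (filled circles, coloured by step); the dashed line is the floor of 76.4. Filled circles lie to the right of open ones in 21 genes, and Ggps1 shows the widest shift to the left.

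The steps from acetyl-CoA to lanosterol held 4 of the 5 synthesis enzymes that were at least 25% higher. Ggps1, a branch enzyme off the route to sterols, is counted with this group throughout. Of the 10 measured genes so grouped, 4 were at least 25% higher (all measured genes, 11.9%). Only Ggps1 was at least 20% lower (all measured genes, 10.2%). Hmgcs1, the cytosolic synthase that makes HMG-CoA, had signals of 9806 against 11683 (1.19-fold higher). All 4 of its measured probe sets were above 0, with log2 ratios of 0.25 to 0.46. Mevalonate kinase, Mvk, was 372 against 507 (1.36-fold), but its dimmer probe set went the other way, with a log2 ratio of -0.24. The probe sets of Mvk therefore do not give 1 direction. Phosphomevalonate kinase, Pmvk, read by 1 probe set, was 1208 against 1768 (1.46-fold). Mvd, which decarboxylates mevalonate diphosphate to isopentenyl diphosphate, was 289 against 310, with log2 ratios of 0.10 and 0.57 in its probe sets. The 4 mevalonate genes were thus all above 0 by their brightest probe sets, with a median of 0.35.

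The 3 genes of the isoprenoid steps did not share a direction. Idi1, which interconverts the C5 isoprenoid diphosphates, was 6485 against 7937 by one probe set (1.22-fold), while the other gave a log2 ratio of -0.10. Farnesyl diphosphate synthase, Fdps, was 9050 against 11299 (log2 ratio 0.32, just short of 25% before rounding). Ggps1 makes geranylgeranyl diphosphate, the lipid for protein prenylation, and thus leads away from sterols. It was 309 against 237 (1.30-fold lower), and its 4 dim probe sets ranged from -0.80 to 0.23, 3 of them below 0.

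The enzymes that commit farnesyl diphosphate to sterols were all above 0. Squalene synthase, Fdft1, was 4557 against 5902 (1.30-fold), with log2 ratios of 0.37 and 0.48 in its 2 measured probe sets. Squalene epoxidase, Sqle, a rate-limiting oxygenase of the pathway, was 1796 against 2057 (1.15-fold). Lanosterol synthase, Lss, which closes the rings, was 1078 against 1650 (1.53-fold). Its next probe set gave a log2 ratio of 0.53 (511 against 736), below the 1.5-fold size, and a dim one gave -0.23 (127 against 108). Over the 10 genes grouped up to lanosterol, the branch enzyme Ggps1 included, 9 were above 0 and the median was 0.31.

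To show what lies before the starts of these genes, the 250 bases upstream of RefSeq starts (GRCm38.p6) were searched on both strands for a strict sterol response element core (TCACNCCAC), a loose one (TCACNNCAC, which contains the strict one), the NF-Y box (CCAAT), the GC box (GGGCGG) and the E-box (CACGTG). SREBPs bind sterol response elements weakly on their own and act with NF-Y or Sp1 bound nearby. Of the 29 listed genes, windows of 23 were searched, since the others had no promoter entry or were left out by chromosome. No such filter was applied to the windows of all genes. The strict core was found before 1 of the 23 most upstream starts, that of Hmgcs1, and in 1.05% of all 32851 promoter windows of this length; the loose core was found before 3, those of Hmgcs1, Hsd17b7 and Msmo1 (3.11%). An NF-Y box stood before 20 of the 23 (33.8% of all windows), with 12 genes holding more than 1 and Ggps1, the gene with the lowest ratio, among them, and a GC box before 18 (32.7%). E-boxes stood before 3 (6.02%). Counting every listed start, 21 of 29 windows held an NF-Y box and 22 a GC box. A match describes letters in the window and is not a shown binding site. The windows of Hmgcs1 (chr13:119690101-119690350, plus strand), which holds the strict core, of Mvk (chr5:114444019-114444268, plus strand), which holds the most NF-Y boxes, and of Lss (chr10:76531355-76531604, plus strand), the gene with the highest ratio, are printed 5′ to 3′ on the gene's strand. Capitals mark the strict core and NF-Y boxes in either orientation.
Hmgcs1: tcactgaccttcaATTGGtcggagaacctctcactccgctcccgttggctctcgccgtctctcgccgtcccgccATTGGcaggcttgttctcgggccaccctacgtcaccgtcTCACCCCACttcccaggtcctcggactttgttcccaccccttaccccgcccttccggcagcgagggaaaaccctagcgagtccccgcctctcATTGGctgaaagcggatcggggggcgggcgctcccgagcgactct
Mvk: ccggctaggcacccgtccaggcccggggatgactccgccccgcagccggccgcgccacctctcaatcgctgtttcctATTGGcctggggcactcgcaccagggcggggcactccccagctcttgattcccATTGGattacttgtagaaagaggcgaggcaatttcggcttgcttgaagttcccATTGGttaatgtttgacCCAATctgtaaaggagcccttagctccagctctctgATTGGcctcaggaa
Lss: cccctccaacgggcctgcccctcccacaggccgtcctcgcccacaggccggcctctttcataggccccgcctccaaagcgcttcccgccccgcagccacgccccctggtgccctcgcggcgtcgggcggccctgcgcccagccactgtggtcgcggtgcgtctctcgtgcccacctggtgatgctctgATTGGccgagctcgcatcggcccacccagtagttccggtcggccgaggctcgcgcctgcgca
Hmgcs1 holds the strict core 137 to 129 bases before its start and 3 NF-Y boxes. Mvk holds 5 NF-Y boxes and Lss 1, with no match to either core in the window.

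**Figure D2:**
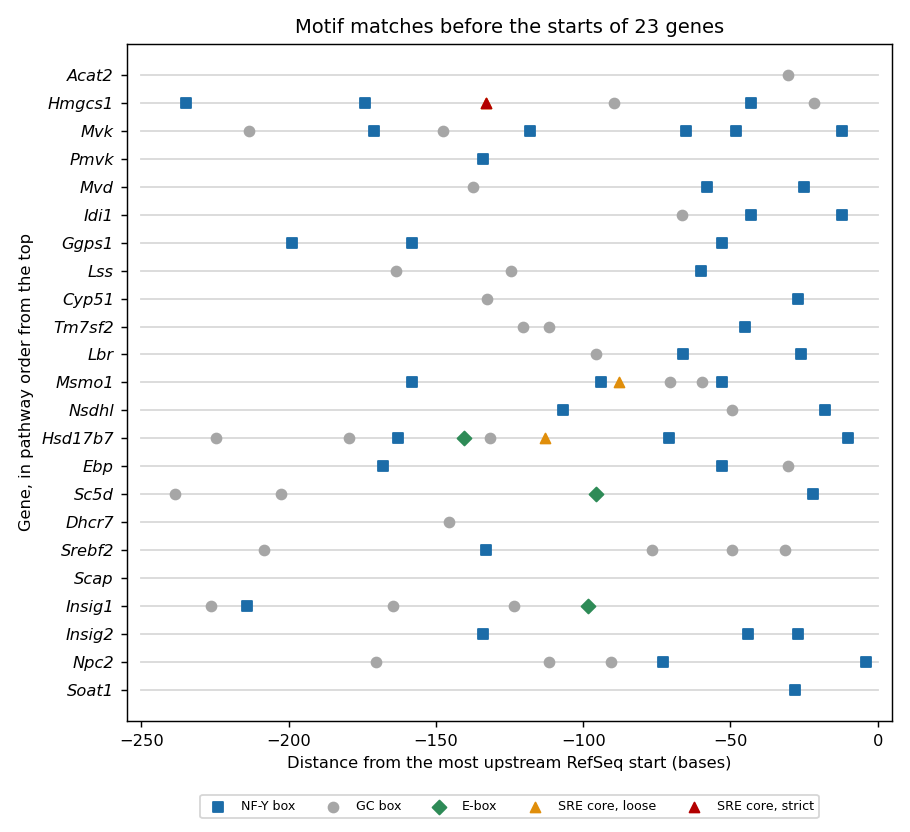
Positions of motif matches (x axis, bases before the most upstream RefSeq start) for 23 genes (y axis, pathway order); squares are NF-Y boxes, grey circles GC boxes, diamonds E-boxes, and triangles the strict (red) and loose (orange) sterol response element cores. NF-Y boxes appear in 20 of the 23 rows, and the strict core in Hmgcs1 alone; Acat2 and Soat1 are shown although they had no array values here.

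From lanosterol to cholesterol 1 of 9 genes was past the size of 0.32, Hsd17b7. Of all measured genes 11.9% were higher by this size, and of those with a mean signal of at least 1000, 3.12%. Cyp51, the lanosterol demethylase, was 3705 against 3921 (1.06-fold), with its dimmer probe sets at log2 ratios of 0.24 and 0.32. The sterol C14 reductases Tm7sf2 and Lbr, the latter also a nuclear envelope protein, had log2 ratios of 0.14 (7913 against 8689) and 0.15 (1229 against 1363). The C4 demethylation enzymes Msmo1, an oxidase, and Nsdhl, a dehydrogenase, had log2 ratios of 0.20 (7532 against 8631) and 0.16 (4403 against 4924). These genes each lay within the size of 0.32. Hsd17b7, the 3-ketosteroid reductase of C4 demethylation, was 2302 against 3185 (1.38-fold), and all 3 of its measured probe sets were between 0.36 and 0.47. The last steps had ratios close to 0. The sterol isomerase Ebp was 14014 against 13911 (log2 ratio -0.01), the desaturase Sc5d was 11343 against 12143 (0.10, with 3 probe sets from 0.05 to 0.13), and the reductase Dhcr7 was 4364 against 4517 (0.05). Of these 9 genes, 8 were above 0, with a median of 0.14. The ranges of both stretches of the pathway overlap, from -0.38 to 0.61 up to lanosterol and from -0.01 to 0.47 beyond it. The -0.38 is that of the branch enzyme Ggps1, and the next lowest up to lanosterol was Mvd (0.10). The difference between the medians of both stretches was not tested. Counted over measured probe sets, the medians were 0.27 over 22 up to lanosterol, 4 of them of Ggps1, and 0.15 over 15 beyond it. Probe sets of 1 gene share the pools and are not replicates.

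The window before the start of Hsd17b7 (chr1:169969206-169969455, minus strand) is shown because this gene differs most among the later enzymes and holds a loose core (117 to 109 bases before the start); capitals mark that core and 3 NF-Y boxes.
Hsd17b7: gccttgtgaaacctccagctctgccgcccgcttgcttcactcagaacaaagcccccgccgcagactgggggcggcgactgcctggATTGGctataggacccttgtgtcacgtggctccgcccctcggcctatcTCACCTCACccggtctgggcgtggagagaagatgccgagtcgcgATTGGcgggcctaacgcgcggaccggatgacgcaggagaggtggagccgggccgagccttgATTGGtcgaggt
The other gene of these steps with a loose core before its most upstream start, Msmo1, had a log2 ratio of 0.20, and its core shares 1 base with an NF-Y box.

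**Figure D3:**
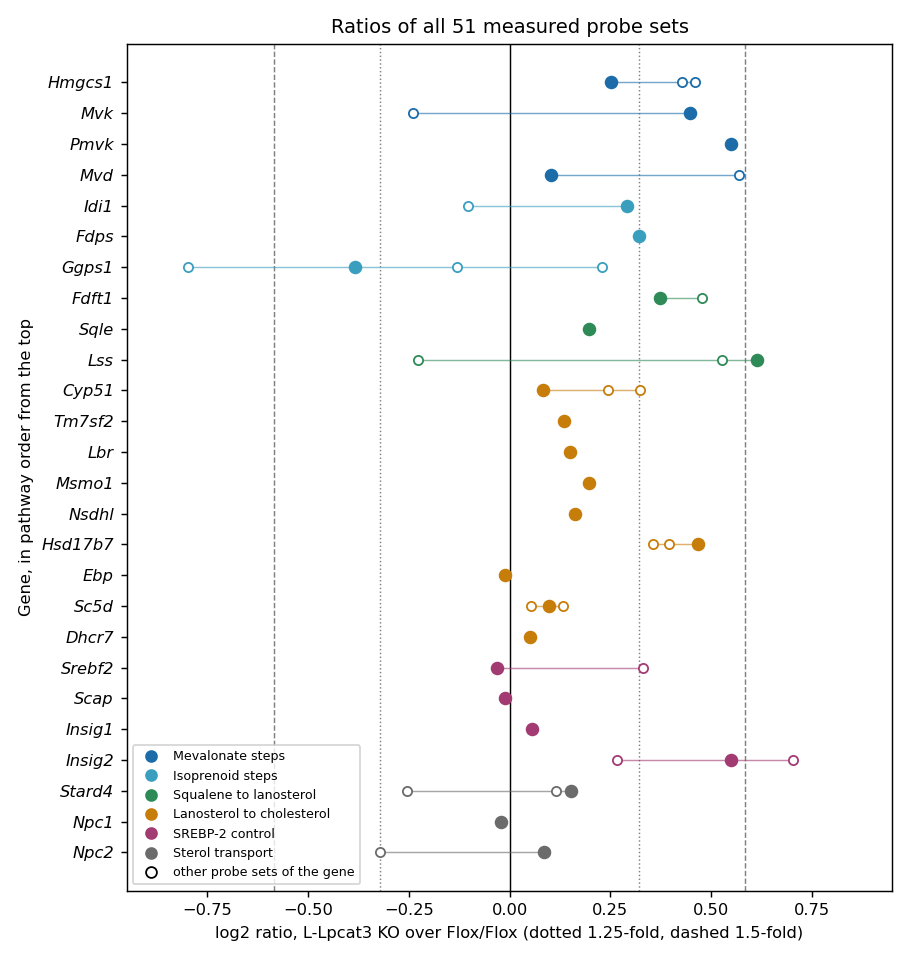
Log2 ratio, L-Lpcat3 KO minus Flox/Flox (x axis), for all 51 measured probe sets of 26 genes (y axis, pathway order); filled points are the brightest probe set of each gene, open points its other probe sets, dotted lines mark a size of 0.32 and dashed lines 1.5-fold. The brightest probe sets of Lss, Pmvk, Insig2 and Hsd17b7 lie farthest right (log2 ratios 0.61, 0.55, 0.55 and 0.47), while Mvk, Idi1, Ggps1, Lss, Srebf2, Stard4 and Npc2 have probe sets on both sides of 0.

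Of the 4 regulators, 1 was past the size of 0.32, Insig2 (all measured genes higher by this size, 11.9%). Srebf2 was 392 against 383 (log2 ratio -0.03), with 0.33 in its dimmer probe set (233 against 293). Scap was 4634 against 4594 (-0.01). Insig1, which is itself a target of SREBP-2, was 6227 against 6469 (0.05). These 3 genes each lay within the size of 0.32 by their brightest probe sets. Insig2 was 2932 against 4293 (1.46-fold). Its other probe sets were 2162 against 3522 and 2126 against 2556, so that all 3 were higher in L-Lpcat3 KO, with log2 ratios of 0.55, 0.70 and 0.27. Insig2 has a liver-enriched transcript that insulin lowers and fasting raises, and which transcript the probe sets read is not known here. Insig1 has 1 probe set, and no test of the difference between both genes can be made with 1 array per genotype. Windows before the starts of Insig1 (chr5:28071162-28071411, plus strand) and of the most upstream of 3 listed starts of Insig2 (chr1:121332590-121332839, minus strand) are shown to set this pair side by side, with NF-Y boxes and E-boxes in capitals.
Insig1: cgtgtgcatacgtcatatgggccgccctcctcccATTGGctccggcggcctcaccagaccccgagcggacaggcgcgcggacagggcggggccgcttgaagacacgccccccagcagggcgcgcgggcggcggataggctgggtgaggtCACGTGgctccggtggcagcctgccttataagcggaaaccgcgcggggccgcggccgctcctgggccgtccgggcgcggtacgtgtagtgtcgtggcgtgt
Insig2: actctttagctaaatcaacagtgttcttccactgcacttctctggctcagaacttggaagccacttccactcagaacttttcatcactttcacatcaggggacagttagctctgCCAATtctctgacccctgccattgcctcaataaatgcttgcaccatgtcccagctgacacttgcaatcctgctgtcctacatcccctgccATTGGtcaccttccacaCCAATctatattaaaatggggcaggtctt
Insig1 holds 1 NF-Y box, 3 GC boxes and an E-box, and Insig2 holds 3 NF-Y boxes and neither of the others before this start. Neither window matches a sterol response element core, which says only that these letters are not in these 250 bases.

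Genes of intracellular cholesterol transport differed little. Stard4, a cytosolic sterol carrier, was 2399 against 2667 (log2 ratio 0.15), with 0.12 and -0.25 in its other probe sets. Npc1, the lysosomal membrane protein that exports cholesterol, was 2110 against 2080 (-0.02). Npc2, the soluble lysosomal protein that hands cholesterol to Npc1, was 5573 against 5918 (0.09). A second probe set of Npc2 gave 0.09 too (4389 against 4663) and a dim one -0.32. All 3 genes lay within the size of 0.32 by their brightest probe sets.

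How far single ratios can be read is shown by genes with several probe sets. Of the 59 member probe sets, 8 were below the floor in both pools, with signals from 0.393 to 61.2, and belong to genes that also have a measured probe set. Of the 51 others, 39 had ratios above 0 and 12 below (50.7% of 20650 measured probe sets were above 0); 16 were higher by 25% or more (13.3%) and 2 were lower by 20% or more (11.7%). Of 14 genes with more than 1 measured probe set, 7 had all of them above 0 (Hmgcs1, Mvd, Fdft1, Cyp51, Hsd17b7, Sc5d and Insig2) and 7 were mixed. The 2 brightest probe sets shared a direction in 10 of these 14, against 54.1% of 4495 genes with 2 above the floor in both pools. Across all genes on the array, the ratios of the 2 brightest probe sets of a gene differed by a median of 0.20 on the log2 scale over 4495 genes, and by 0.11 over 1092 genes with both at a mean signal of at least 1000. For the 14 members the median difference was 0.17. Among all 313 genes whose brightest probe set was at least 25% higher and that had a second one above the floor in both pools, that second one was also above 0 in 54% of genes; among the members this held for 4 of 5, the exception being Mvk.

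Further genes of the pathway had ratios on both sides of 0. Of 4 further lists with 48 annotated genes, 47 were measured, of which 21 were above 0 and 26 below, with a median of -0.01 and none at least 1.5-fold apart. Among 11 measured genes of other sterol steps and SREBP targets, 7 were above 0 (median 0.07). The brightest of these were Pgrmc1, a haem-binding partner of cytochrome P450 enzymes (log2 ratio -0.07), and Cyb5r3, a cytochrome b5 reductase (-0.19, with its 3 measured probe sets from -0.19 to 0.14). Acss2, the cytosolic acetyl-CoA synthetase and a target of both SREBPs, was 7025 against 9132 (1.30-fold), and is named after its value was seen. It was the 1 gene of this list past the size of 0.32 (all measured genes higher by this size, 11.9%). In the list of SREBP processing, turnover of HMG-CoA reductase and partner transcription factors, 12 of 14 measured genes were below 0. Of all 12059 measured genes, 5942 were below 0. The median of the list was -0.15, and 3 of its genes were at least 20% lower (all measured genes, 10.2%). These 3, also named after their values were seen apart from Erlin1, were Erlin1 (3721 against 2800), an ER membrane protein that binds SREBP complexes, Rnf145 (1732 against 1307), an ER ubiquitin ligase that answers to sterols, and Nfya (305 against 229), the DNA-binding subunit of NF-Y, with log2 ratios of -0.41 each. The second probe set of Erlin1 was at -0.02. Rnf139, a ubiquitin ligase of the ER and like Erlin1 among the brightest of its list, had a log2 ratio of 0.00. By second brightest probe sets the median of this list was -0.01.

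Genes for isoprenoid branches and for other sterol transport were spread around 0. Of 8 measured genes of protein prenylation, dolichol and ubiquinone synthesis, 5 were above 0 (median 0.06), with Fnta, a prenyltransferase subunit, at 0.09 and Nus1, a dolichol synthesis subunit, at 0.20, the highest of its 6 probe sets (-0.41 to 0.20). Of 14 measured genes of other sterol transport and ester hydrolysis, 7 were above and 7 below 0, with the esterase Ces1d at -0.06 (probe sets from -0.06 to 0.08) and the carrier Scp2 at -0.01. The 4 probe sets of Scp2 spread from -0.30 to 1.33. Both lists held single genes past the size of 0.32, named after their values were seen. Of all measured genes, 11.9% were higher and 10.2% lower by this size. Fntb, a prenyltransferase subunit, was below the floor in Flox/Flox (64.9 against 96.2). Stard3, a late endosomal sterol transporter, was higher (514 against 706, 1.38-fold), and Osbpl9, an oxysterol-binding protein relative, was lower (7222 against 5735, log2 ratio -0.33, with its probe sets from -0.43 to 0.11).

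Lipogenesis, the neighbouring programme run mainly by SREBP-1c, was set beside these genes. Of 16 measured genes, 9 were above 0 and 7 below, with a median of 0.12, against 17 of 19 and a median of 0.20 for the measured synthesis enzymes. Those 19 include the branch enzyme Ggps1. By second brightest probe sets the lipogenesis median was 0.28, close to the 0.29 of the 14 members with such a probe set, control and transport genes included. For the synthesis enzymes alone these medians were 0.43 up to lanosterol and 0.24 beyond it. Without probe sets whose ID marks possible cross-binding the lipogenesis median was 0.19. Scd1, the stearoyl-CoA desaturase, was at -0.02 and Thrsp, a lipogenic nuclear protein, at 0.16. Of the 16 genes, 4 were at least 25% higher (all measured genes, 11.9%). Among genes with a mean signal of at least 1000 this share was 3.12%. The 4 were Elovl5 and Fads2, which elongate and desaturate polyunsaturated chains, Acss2, and Acacb, an acetyl-CoA carboxylase. Their log2 ratios were 0.56, 0.44, 0.38 and 0.35, and they were named after their values were seen. Genes of LXR-driven cholesterol efflux had a median of 0.07 over 9 genes. The brightest of them were Apoe, a ligand of lipoprotein receptors (-0.08), and Abca1, the cholesterol exporter (11556 against 9302, log2 ratio -0.31). The other measured probe set of Abca1 was at -0.05. Pltp, a phospholipid transfer protein, was 2.33-fold higher (2755 against 6409), with its other probe set at a log2 ratio of 0.69. The efflux genes Abcg1, Abcg5 and Abcg8, named after their values were seen, were at 0.45, 0.22 and 0.17. No test of the difference between these lists can be made with 1 array per genotype.

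**Figure D4:**
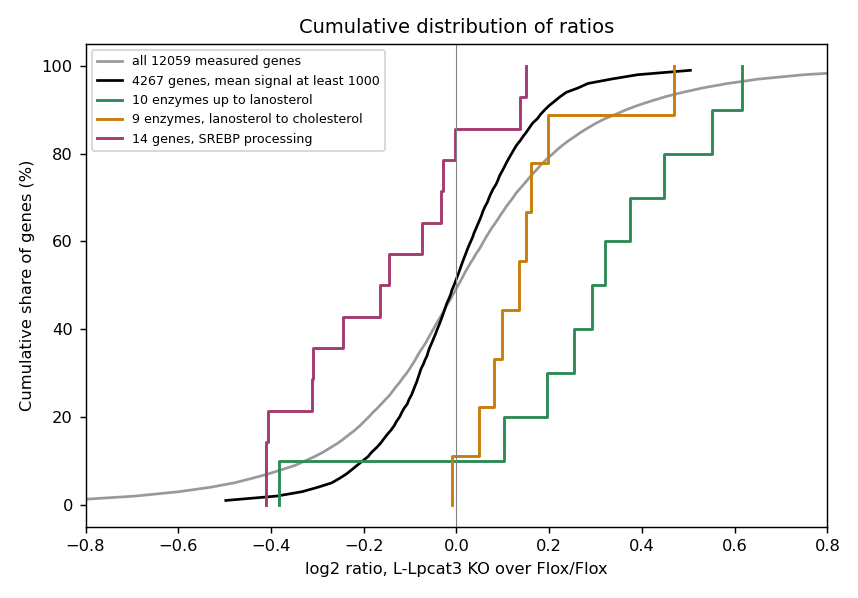
Cumulative share of genes (y axis, %) by log2 ratio, L-Lpcat3 KO minus Flox/Flox (x axis), for all 12059 measured genes (grey), 4267 genes with a mean signal of at least 1000 (black), 10 enzymes up to lanosterol (green) and 9 enzymes from lanosterol to cholesterol (orange). The purple line, labelled SREBP processing, holds 14 genes of SREBP processing, reductase turnover and partner transcription factors. The green line includes the branch enzyme Ggps1. The medians are 0.31 and 0.14 for the enzymes and -0.15 for the purple line, against 0.00 for all genes.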

How the data were processed

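The authors pooled liver RNA of 5 mice per genotype and deposited an intensity for each probe set, named as a MAS5 signal in the submitters' notes (version not given in the sources used here); GeneSpring GX is named in the methods. Each array had a mean of 500.0 after trimming 2% at either end, so both were already scaled. Probe sets were mapped by gene ID through the platform annotation, with symbols from the RefSeq annotation of GRCm38.p6; 64 control probe sets were left out of gene values. Before taking log2, without scaling, signals under the median of both arrays (76.4) were raised to it, and a gene took the value of the probe set with its highest mean log2 signal if at least 1 pool lay above the floor. For background, 28 genes that mark other tissues (45 probe sets) gave a median signal of 14.3, with 13.3% of signals over the floor; the brightest were Prm1 and Krt10 (log2 ratios -0.09 and -0.21). With 1 array per genotype no test was run; genes were counted at 25% higher or 20% lower, 1.5-fold and 2-fold. Only 1 array per group limits the precision.

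All members were named, with the 2 brightest measured genes of each other list, any 1.5-fold apart, and a few more said to be chosen after their values were seen. Members and lists were chosen with earlier results of these data known. Alternatives changed the scaling (median centring, quantile, loess), the floor (25th or 75th percentile, none, a pseudocount) and the gene summary (mean of probe sets, second brightest, or without IDs ending in _s_at, _x_at or _a_at, which can bind several transcripts). The scripts were tested on simulated data. Promoter sequences are from RefSeq (GRCm38.p6); when a gene has several starts, counts use the most upstream. Python 3.11.15, numpy 2.4.6, pandas 2.3.3, statsmodels 0.14.6 and matplotlib 3.10.9 were used.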

Additional observations from a re-analysis of the deposited data

How the results depend on the processing

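No paired analysis was possible because each genotype has 1 array. Of 26 genes, 19 kept the sign of their ratio under every alternative that gave a value (up to 10 a gene), among them Hmgcs1, Pmvk, Fdft1, Lss, Hsd17b7 and Insig2; 22 of 244 such values moved by over 0.1 on the log2 scale and 2 more, past the size of 0.32 in the report, changed sign. These were Mvk by its second brightest probe set (-0.24) and Ggps1 without probe sets ending in _s_at, _x_at or _a_at (0.23). The 1 gene at least 1.5-fold higher became 0 with a pseudocount, by the mean of probe sets, and without the _s_at, _x_at and _a_at probe sets; by second brightest probe sets it was Insig2 (0.70) in place of Lss (0.53). By second brightest probe sets 1 gene, Ggps1, was at least 1.5-fold lower in place of 0. The 1 gene at least 20% lower became 0 with the 75th percentile as floor, with a pseudocount, by the mean of probe sets, and without those 3 kinds of probe sets. Second brightest probe sets, which exist for 14 member genes, gave 10 above 0 and a median of 0.29. Medians by these probe sets were 0.43 up to lanosterol and 0.24 beyond it. They were -0.0145 for genes of SREBP processing and reductase turnover and 0.28 for lipogenesis. The lipogenesis median was 0.19 without those 3 kinds of probe sets. Otherwise the member median stayed between 0.14 and 0.16. The number at least 25% higher was 6 or 7 under every alternative in scaling, floor and gene summary, but not always the same genes. By second brightest probe sets it was 7 of 14 (all genes, 14.3%). The share of all genes higher by this size changed with the floor. This share was 11.9% in the report and 4.78% with the 75th percentile as floor (members, 6 of 24). It was 19.5% with the 25th percentile and 22.99% without a floor (members, 6 of 26 in both). Without a floor the share of members was thus about that of all genes. The 6 named in the report remained under each scaling and floor, with Fdps added by quantile and loess. By the mean of probe sets 4 of the 6 remained, Lss (0.30) and Mvk (0.10) being replaced by Hmgcs1 and Mvd. By second brightest probe sets 4 remained, Mvk dropping out and Pmvk having no value, with Hmgcs1, Mvd and Srebf2 added. Without the _s_at, _x_at and _a_at probe sets 5 remained, Pmvk having no value, with Hmgcs1 added. Over all genes, the 483 higher and 379 lower at 1.5-fold became 57 and 59 with the 75th percentile as floor, 1769 and 1383 with the 25th, 2721 and 2356 without a floor, and 235 and 197 by second brightest probe sets. Scaling moved the median of all genes by less than 0.1. Alternatives for medians of parts of the pathway and of other lists, and the limit on mean signal, were chosen after seeing the data. Whether any ratio exceeds the variation among mice cannot be told from 1 pool per genotype.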
